A study of Capra hircus with 3 samples.

Results

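The members described here are the tags of miR-199a, miR-199b, miR-199c and miR-214, microRNAs known from fibroblasts and other mesenchymal cells, in small RNA libraries of goat skin. A tag is a distinct sequence with its number of reads. Members were chosen by sequence: a tag belongs to a microRNA when its first 18 nt are those of a tag that the study listed for that precursor. The held part of that list has 10 tags for these precursors, with 5 different 18-nt starts, out of 2697 tags and 865 starts for all microRNAs. Of the 4043974 distinct clean tags in the 3 libraries, 729 shared a start with a listed member tag, 328 of them present at anagen, 385 at catagen and 504 at telogen.

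The libraries came from skin of adult Shanbei White cashmere goats at anagen, when the hair follicle grows, catagen, when it regresses, and telogen, when it rests. Skin of 10 goats was mixed for each stage before RNA was isolated and sequenced as 1 library, so there is no replicate, and every test below compares libraries, not stages. No genotype or treatment separates the groups. Whole skin was used, without sorting, so the label of dermal cells rests on what is known of these microRNAs and not on any separation of cells, and fewer cells of a type cannot be told apart from less RNA per cell.

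A microRNA precursor is a hairpin whose 5′ and 3′ arms (5p and 3p) can each give a mature microRNA. Bases 2 to 8 of the mature strand, the seed, pair with target messenger RNAs, so a strand that starts 1 base earlier carries a different seed. The genes of miR-199a and miR-214 are known to lie together in an intron of a dynamin gene, on its opposite strand, and miR-199b in another dynamin gene. In the goat annotation ARS1.2, MIR199A and MIR214 are direct neighbours within DNM3, and MIR199B lies within DNM1. MIR199C was not matched by name.

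The listed tags covered the 3p arm of miR-199 and the 5p arm of miR-214. The 5p arm of miR-199 and miR-214-3p had no listed tag in the part held and were not analysed here. The next sequences show why miR-199-3p is read as 1 group with separable types. They are the longest tag listed at each start for miR-199c and for miR-199a, written as DNA, 5′ to 3′, with the bases from position 20 on in capitals. Positions are counted from 1 at the first base of the main start.

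miR-199c, main start: acagtagtctgcacattggCTT

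miR-199c, start 1 nt earlier: tacagtagtctgcacattggCTT

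miR-199a, main start: acagtagtctgcacattggTTAGAC

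miR-199a, start 1 nt earlier: tacagtagtctgcacattggTTAGA

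These types share their bases up to position 19 and differ first at position 20, where miR-199c has cytidine and miR-199a uridine. No tag in the held list was named for miR-199b, so its tags could not be told from those of miR-199a. The most abundant tags of each start follow, with the seed in capitals, since the seed is what the shift of the start changes.

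main start, 21 nt: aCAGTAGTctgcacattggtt

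main start, 22 nt: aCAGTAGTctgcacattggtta

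start 1 nt earlier, 22 nt: tACAGTAGtctgcacattggtt

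start 1 nt earlier, 23 nt: tACAGTAGtctgcacattggttt

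miR-214-5p, main start, 22 nt: tGCCTGTCtacacttgctgtgc

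miR-214-5p, start 1 nt later, 21 nt: gCCTGTCTacacttgctgtgc

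The libraries held 15997828 clean reads at anagen, 18111912 at catagen and 27016012 at telogen. The member tags took 1.25%, 2.27% and 1.80% of them. The reads of all 865 listed starts took 45.0%, 45.1% and 36.2%, so that members were 2.78%, 5.04% and 4.98% of the reads at listed starts. Tags no longer than 20 nt held 5.25% of the reads at listed starts at anagen, 1.91% at catagen and 2.90% at telogen. A count of 0 allows up to 3 reads, which is 0.188, 0.166 and 0.111 TPM (reads per 1000000 clean reads). All intervals are 95% intervals and cover counting error only, since reads of an amplified library carry no molecular identifier here.

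miR-199-3p was among the most abundant of the listed starts held in every library, and was lowest in anagen and highest in catagen. Its 2 listed starts together had 200513 reads at anagen, 411594 at catagen and 486557 at telogen, or 12534, 22725 and 18010 TPM. Catagen was 1.81-fold and telogen 1.44-fold above anagen. The main start ranked 4 among the 865 listed starts at anagen and 5 in the other libraries, and the earlier start ranked 13, 8 and 8. The held list is shortened, so other abundant microRNAs can be missing from it and these ranks hold among the held starts only. miR-214-5p stood far below, with 10 reads at anagen, 27 at catagen and 44 at telogen, or 0.625, 1.49 and 1.63 TPM.

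**Figure D1:**
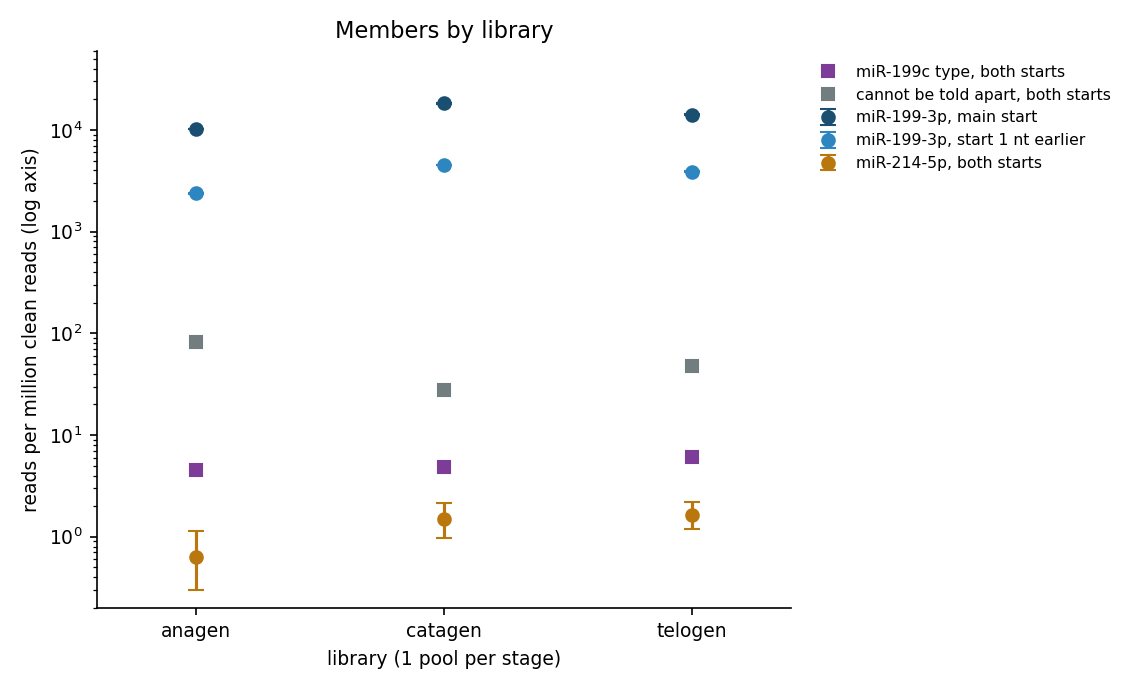
TPM (log axis) of the member groups in the anagen, catagen and telogen libraries; bars on the round points are exact Poisson 95% intervals, hidden by the point where they are narrow. Both starts of miR-199-3p are lowest in anagen and highest in catagen, miR-214-5p is the lowest group, and the short tags that fit both miR-199a and miR-199c are highest in anagen.

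The log2 ratio of anagen over catagen was -0.86 for miR-199-3p (interval -0.87 to -0.85), that of anagen over telogen -0.52 (-0.53 to -0.52) and that of catagen over telogen 0.34 (0.33 to 0.34). A start group was called when its absolute log2 ratio was above 1 and the exact two-sided Audic-Claverie test gave p under 0.01, after leaving out groups below 1 TPM in both libraries. By this rule miR-199-3p was called in no pair. All 3 ratios were larger than the counting error, but the spread between goats or libraries is not known. Of the start groups tested, 25.6% were called between anagen and catagen (111 of 433), 26.9% between anagen and telogen (113 of 420) and 18.2% between catagen and telogen (77 of 423). Among start groups with at least 100 reads in both libraries, these shares were 15.3%, 12.3% and 11.6%.

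Each start by itself gave the same order of the libraries. The main start had 162496 reads at anagen, 329908 at catagen and 381844 at telogen, or 10157, 18215 and 14134 TPM. Its log2 ratios were -0.84 with catagen as divisor, -0.48 with telogen, and 0.37 for catagen over telogen. The earlier start had 38017, 81686 and 104713 reads, or 2376, 4510 and 3876 TPM. Its ratios were -0.92, -0.71 and 0.22 in the same pairs, so that it was lower in anagen by more than the main start was, and less high in catagen over telogen.

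Anagen was below both other libraries under each of the 3 scalings tried, but the higher level in catagen than in telogen was not as steady. Scaled to the reads of all listed starts in place of all clean reads, miR-199-3p gave a log2 ratio of 0.019 for catagen over telogen, and the earlier start -0.098. The ratios are also to be read beside the median of all start groups tested, which was -0.31 and -0.18 with catagen and telogen as divisors, and 0.12 for catagen over telogen. Of the 190 start groups with at least 100 reads in both libraries, 34 had a lower ratio of anagen over catagen than the main start. For anagen over telogen, 55 of 195 had one.

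**Figure D2:**
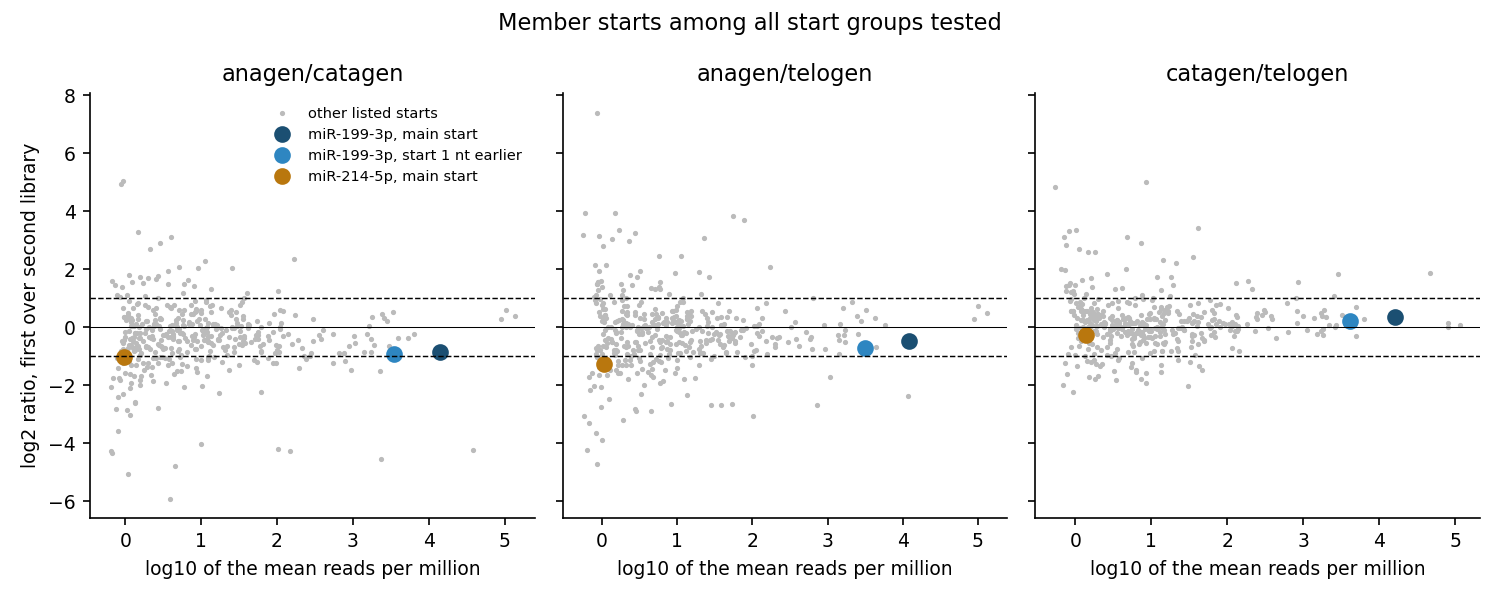
Log2 ratio (vertical, first over second library) against log10 of the mean TPM (horizontal) for every start group tested in each pair of libraries; dashed lines mark a log2 ratio of 1 in either direction. Both starts of miR-199-3p lie below 0 and above the lower dashed line against catagen and telogen, while miR-214-5p lies at the low end of abundance on or beyond that line.

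miR-214-5p, the strand of its hairpin that these tags show, had so few reads that its ratios are wide. Its 2 starts together gave a log2 ratio of -1.25 for anagen over catagen (interval -2.47 to -0.16; exact Audic-Claverie test, p = 0.0217), which was not called. The ratio of anagen over telogen was -1.38 (-2.54 to -0.37; exact p = 0.00486), which was called as lower in anagen. Among the start groups tested, 16.4% were called lower in anagen in that pair (69 of 420), against 18.9% for anagen and catagen (82 of 433). The log2 ratio of catagen over telogen was -0.13, and its interval ran from -0.88 to 0.60 (exact p = 0.816). The call did not hold for the main start alone, with 10, 23 and 41 reads and a ratio of -1.28 for anagen over telogen (exact p = 0.0108), nor with size factors from the median of ratios (-1.27). The start 1 nt later added 0, 4 and 3 reads. The 22-nt tag ending in tgtgc had 4 reads at anagen, 14 at catagen and 26 at telogen.

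The start 1 nt earlier made up 18.96% of the miR-199-3p reads at anagen (interval 18.8% to 19.1%), 19.8% at catagen (19.7% to 19.97%) and 21.5% at telogen (21.4% to 21.6%). The intervals of the 3 libraries do not overlap, and the largest gap was that between anagen and telogen. Most microRNAs had few reads with such a start. Over 107 main starts with at least 1000 reads, the median share of reads 1 nt earlier was 0.107% and the 90th percentile 11.8%. miR-199-3p, at 20.5% over all libraries, ranked 9. Among the 8 above it were miR-101, at 43.5%, and miR-140, at 37.8%. This ranking was chosen after the shares had been seen.

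The reads of each start were spread over a few 3′ ends. At the main start, the 21-nt tag had 71658 reads at anagen, 152654 at catagen and 161899 at telogen, which is 44.1%, 46.3% and 42.4% of that start. The 22-nt tag with adenosine at position 22, as in the listed 25-nt miR-199a tags, had 48760, 99622 and 128049 reads, or 30.01%, 30.2% and 33.5%. The 22-nt tag with uridine there, which those listed tags do not have, had 19114, 38523 and 42830 reads. Telogen thus had the largest share of the tag with adenosine and the smallest of the tag ending at position 21. The 23-nt tag with adenosine at positions 22 and 23 had 10675, 18396 and 24978 reads, and the 20-nt tag 3940, 7616 and 7159.

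At the earlier start the 22-nt tag, which also ends at position 21, had 23845 reads at anagen, 53128 at catagen and 67308 at telogen. It took 62.7%, 65.0% and 64.3% of that start, more than the tag with the same end took at the main start in each library. The next tag had uridine at position 22, with 5020, 11016 and 13367 reads. The one after it had adenosine there, with 3956, 7863 and 10945. The order of these bases was thus the reverse of that at the main start.

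**Figure D3:**
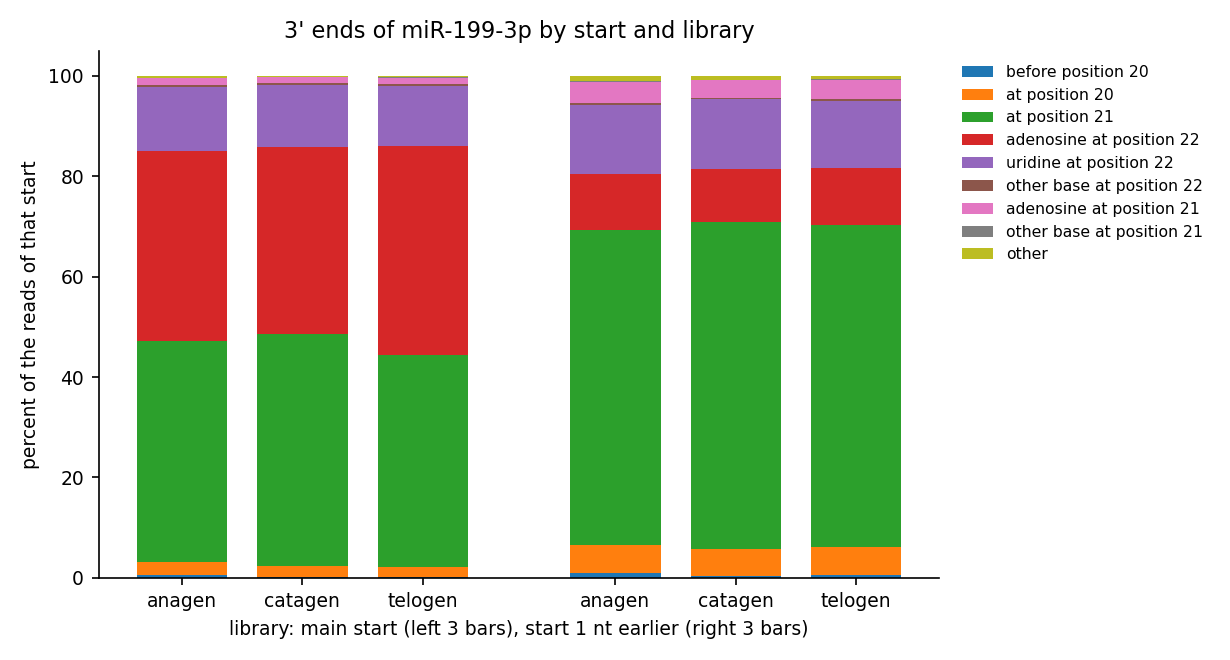
Percent of the reads of each start (vertical) by where the tag ends and which base follows, in each library; the left 3 bars are the main start and the right 3 the start 1 nt earlier, and a class named for a base at position 22 or 21 includes longer tags with that base. The main start runs on with adenosine far more often than the earlier start, whose reads mostly end at position 21.

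Counted over all tags that match through position 21, 53.6% of the main-start reads ran past it at anagen, 51.9% at catagen and 56.0% at telogen. For the earlier start it was 28.7%, 27.6% and 28.0%. Of the reads with adenosine or uridine at position 22, adenosine made up 74.9% (interval 74.6% to 75.2%), 74.8% (74.6% to 74.99%) and 77.5% (77.3% to 77.7%) at the main start. At the earlier start it made up 44.8% (43.8% to 45.8%), 42.6% (42.0% to 43.3%) and 46.0% (45.4% to 46.6%). Adenosine was the commoner base at the main start and uridine at the earlier one in all 3 libraries. Of the bases compared, adenosine is the one that the listed 25-nt miR-199a tags have at this position. Counted by distinct tags in place of reads, adenosine made up 52.6%, 52.9% and 47.2% at the earlier start, with intervals that all include equal shares, so distinct tags show no lead of either base there. The contrast between the starts in reads was many times the counting error and far above the differences between libraries. It was noticed in these data, and different tags can be ligated and amplified unequally, which was not tested.

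**Figure D4:**
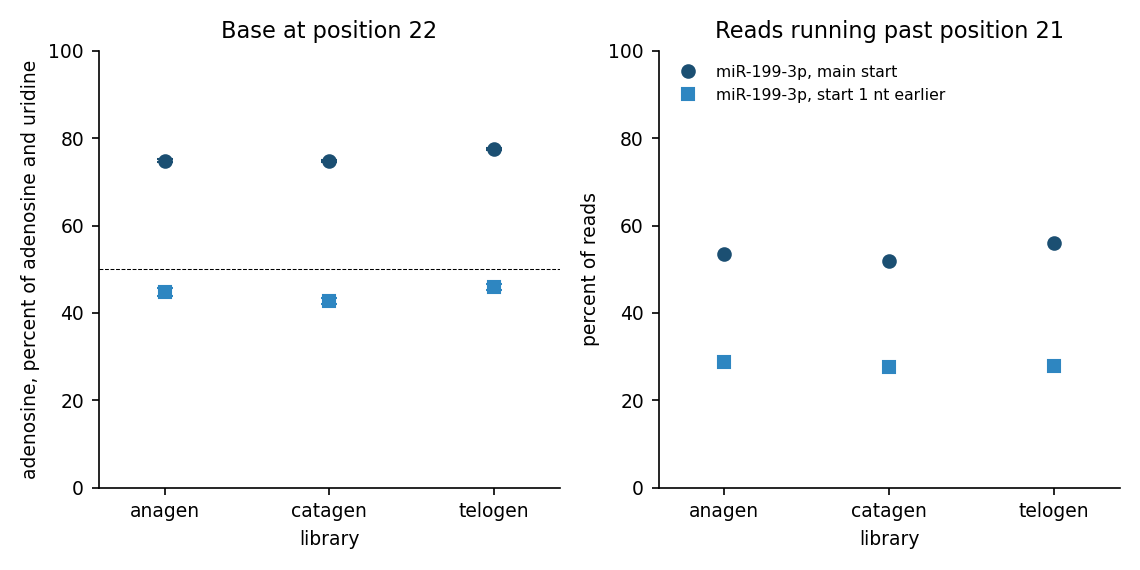
Left, adenosine as a percent of the reads with adenosine or uridine at position 22, with Wilson 95% intervals, by start and library; right, percent of the reads matching through position 21 that run past it. The main start lies at 74.8% to 77.5% on the left and the earlier start at 42.6% to 46.0%, on either side of the dashed line at equal shares.

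Beyond position 22 the reads seldom followed the base of the listed 25-nt miR-199a tag. After the main-start tag ending in adenosine at position 22, the next base was adenosine in 83.8% of longer reads at anagen, 81.8% at catagen and 83.4% at telogen, and uridine in 15.1%, 17.6% and 15.7%. The guanosine of the listed tag made up 0.560%, 0.408% and 0.615%. The 25-nt listed tags themselves had few reads: the main-start one had 0, 2 and 0, and the earlier-start one 1, 2 and 0.

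Nearly all miR-199-3p reads were of the miR-199a type, with guanosine at position 19 and uridine at position 20: 98.7% at anagen, 99.5% at catagen and 99.3% at telogen. The miR-199c type, with cytidine at position 20, had 72, 87 and 166 reads, which is 4.50, 4.80 and 6.14 TPM, or 0.0359%, 0.0211% and 0.0341% of miR-199-3p. The study named miR-199c among microRNAs whose level rose at anagen and fell in the later stages. By the tags counted here the miR-199c type was not highest in anagen. These few reads could not be told from single-base differences in miR-199a, as given below, so they cannot bear on the study's statement. The tags that the study counted for miR-199c may also differ. Tags that end before position 20 fit both types, and had 1320, 505 and 1289 reads. The rest, 1145, 1393 and 1726 reads, had other bases at these positions.

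The ratios of the reads sorted to each type differed for anagen over catagen, with intervals that do not overlap. Reads sorted to the miR-199c type need not come from miR-199c, as the next paragraph shows. The miR-199c type had a log2 ratio of -0.094 for anagen over catagen (interval -0.56 to 0.37), which lies above that of the miR-199a type at -0.87 (-0.88 to -0.86). Against telogen the ratios of anagen were -0.45 (-0.87 to -0.042) and -0.53 (-0.54 to -0.52), whose intervals overlap. The reads with other bases at positions 19 and 20 had a ratio close to that of the miR-199c type for anagen over catagen, -0.10 (-0.22 to 0.010). The short tags that fit both types were higher in anagen, at 82.5 TPM against 27.9 at catagen and 47.7 at telogen. Their log2 ratio of anagen over catagen was 1.57 (1.42 to 1.72), which the exact test called. Short tags at all listed starts moved the same way, with the shares of 5.25%, 1.91% and 2.90% given above, and what part this had in the ratio was not tested.

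The cytidine that marks miR-199c was no commoner than the other minor bases at the same position. Among main-start reads of 21 nt or longer, cytidine at position 20 made up 0.0369% at anagen, 0.0205% at catagen and 0.0378% at telogen of those with guanosine at position 19. Adenosine at position 20, which no listed tag has, made up 0.0497%, 0.0317% and 0.0533%. Guanosine there made up 0.0917%, 0.0233% and 0.0506%. At position 19, where all listed types have guanosine, uridine made up 0.112%, 0.0786% and 0.0800%. Cytidine at position 19 made up 0.0407%, 0.0233% and 0.0276%, and adenosine there 0.0369%, 0.0227% and 0.0241%. The base of miR-199c thus lay within the range of the other single-base differences in anagen and telogen and below it in catagen, so its reads could not be told from such differences in the abundant miR-199a. Over the 3 libraries, 43.0% of the 270 main-start reads with cytidine ended at position 21 (interval 37.2% to 48.9%), against 44.4% of the miR-199a type, and 28.1% (23.1% to 33.8%) ended with adenosine at position 22, against 31.8%. At catagen the latter end took 14.9% of the 67 reads with cytidine (8.31% to 25.3%), below the 30.3% of the miR-199a type there.

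**Figure D5:**
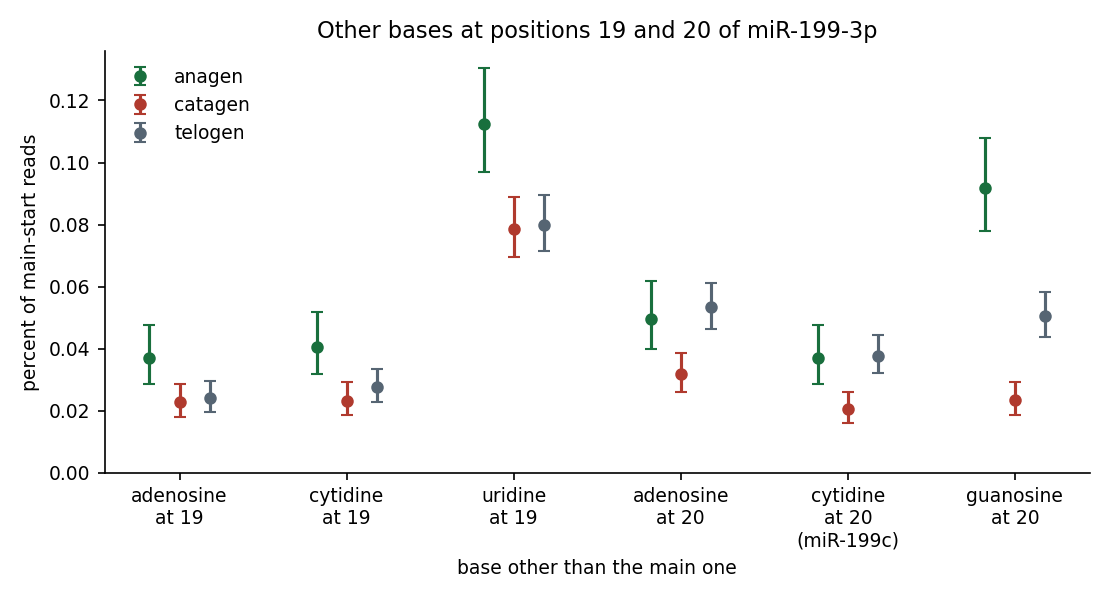
Percent of the main-start reads of 21 nt or longer (vertical) that carry a base other than the main one at positions 19 and 20, with Wilson 95% intervals, by library. Cytidine at position 20, the base of miR-199c, lies at or below the levels of adenosine at the same position.

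The tags named for these precursors in the held part of the study's list had few of the reads at the miR-199-3p starts. They had more of those at the miR-214-5p starts. The listed miR-199a tags had 2 reads at anagen (1 of them at neither 3p start), 4 at catagen and 0 at telogen, and the listed miR-199c tags 20, 28 and 33. The listed miR-214 tags had 5, 20 and 34 reads, out of 10, 27 and 44. The list held here is shortened. The study's own counts placed miR-199a-3p among its most abundant microRNAs at every stage. It had thus assigned abundant tags to this microRNA that the held part does not name. One listed miR-199a tag came from between the arms and ended in the first 8 bases of the earlier start (aggacaatgccgttgTACAGTAG, that stretch in capitals), with 1 read at anagen. Together with a tag 1 base shorter its start had 1, 0 and 1 reads.

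Reads of miR-199-3p came from the same abundant tags in every library. Of its 714 distinct tags, 186 were present in all 3 libraries and carried 99.9% of the reads, while 423 were in 1 library only. For miR-214-5p, 4 of 13 tags were in all 3 libraries, with 72.8% of 81 reads.

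Other microRNAs of mesenchymal cells could be followed only at the starts that the shortened list holds, which can leave out a microRNA's main tags, so their sums and calls are not those of the whole microRNAs. Summed over the 10 of 11 with a held start, they had 5127 TPM at anagen, 10116 at catagen and 7350 at telogen. The log2 ratios of these sums were -0.98, -0.52 and 0.46 in the 3 pairs. The study's own counts placed miR-143 among its most abundant microRNAs at every stage, far above the reads of its held starts. These sums thus lack most of the reads that the study counted for miR-143. They do not give the level of the whole list. Of the 9 tested between anagen and catagen, miR-100, miR-125b and miR-152 were called lower in anagen, beside 18.9% of all start groups. The held starts of miR-143, with 4930, 1509 and 2374 reads, were called higher in anagen, beside 25.6% of all start groups called in either direction, and no reading of miR-143 as a whole is made from them. The other 5 were not called, among them miR-21, with -0.66, and miR-10b, with -0.87. The median of the 9 was -0.87, beside -0.31 for all start groups tested. For anagen over telogen 1 was called lower (miR-125b) and 1 higher (the held starts of miR-143), with a median of -0.45, beside 26.9% of all start groups called and their median of -0.18. For catagen over telogen 1 was called (miR-152, higher in catagen), beside 18.2%. Both counts against telogen are below the shares of all start groups.

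MicroRNAs of other cell types also differed between the libraries. They too were followed only at their held starts, so their sums and calls are not those of the whole microRNAs. miR-203 of the epithelial list and miR-150 of the white blood cell list had no held start. The muscle list had 4117, 78789 and 21405 TPM at anagen, catagen and telogen, and all 4 of its members were called lower in anagen in both pairs, miR-133a and miR-133b on shared tags, beside 18.9% of all start groups against catagen and 16.4% against telogen. The epithelial list had 1311, 2063 and 2168 TPM. Of 9 tested, 1 was called (the held starts of miR-31, lower in anagen in both pairs), no more than those shares. The sum over its held starts was carried by miR-205, with 1005, 1794 and 1876 TPM. The median log2 ratio of the 9 was 0.044 for anagen over catagen, with 4 below 0, against -0.65 for the sum. The red blood cell list had 1312, 2137 and 878 TPM. Of its 3 members miR-486 was called lower in anagen than in catagen (-1.22), beside 18.9% of all start groups. miR-451 (1.00) and miR-144 (3.61) were called higher in anagen than in telogen, and both also higher in catagen than in telogen. Of all start groups, 26.9% and 18.2% were called in either direction in these pairs. The white blood cell list had 87.1, 106 and 168 TPM. Of its 2 members tested, miR-223 was called lower in anagen (-2.54) and in catagen (-1.90) than in telogen. Beside this, 16.4% of all start groups were called lower in anagen than in telogen, and 33 of 423 lower in catagen than in telogen. For miR-126 of the endothelium the values were 38.9, 32.0 and 37.1 TPM. For miR-122 of the liver they were 24.8, 1.99 and 1.22 TPM, called higher in anagen in both pairs. Of all start groups, 25.6% were called in either direction between anagen and catagen, and 26.9% between anagen and telogen. No defining list was at 0 in any library, and what part these cells had in the members' ratios was not tested.

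The start groups whose levels over the 3 libraries were most like those of the main miR-199-3p start were sought among 131 with at least 1000 reads, by the distance between centred log2 TPM. They were miR-130b (distance 0.0455), miR-155 (0.106), miR-130a (0.111), miR-6119 (0.124) and miR-148a (0.130), against a median of 0.570. miR-130b had 19.6, 35.1 and 28.4 TPM at anagen, catagen and telogen. For miR-214-5p the nearest was miR-652 (0.146, median 0.864), with 11.3, 26.1 and 27.9 TPM. With 3 libraries, the likeness is a description only.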

How the data were processed

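The deposited clean-tag files give each distinct tag with its unnormalised read count; per the study's methods, the authors had removed adapters, low-quality reads and tags under 18 nt. Reads were summed here over tags sharing their first 18 nt with a listed tag and scaled to the clean reads of each library (TPM). Pairs of libraries were compared by the exact two-sided Audic-Claverie test across all listed start groups, with Clopper-Pearson intervals for ratios, Wilson intervals for shares and exact Poisson intervals for levels; a count of 0 was set to 0.01 TPM. Members and lists were chosen with earlier results of these data known. Named tags were the 5 with most reads per start, and named microRNAs the members, the 5 most alike and marker lists. The cell type lists covered mesenchyme, muscle, epithelium, red and white blood cells, endothelium and liver. Adapter ligation and amplification differ between sequences, so shares of reads are not shares of molecules. The call rule was tested on simulated counts with Poisson counting error only and no spread between goats or libraries. Among changed groups with at least 100 reads, 12 of 12, 19 of 19 and 10 of 10 3-fold changes were called for anagen/catagen, anagen/telogen and catagen/telogen. Of 1.5-fold changes, which lie under the limit on the ratio, 0 of 18, 0 of 22 and 0 of 15 were called. Without that minimum of reads, 0 of 312, 1 of 308 and 1 of 320 unchanged groups tested were called. These counts cannot show how often pooled libraries would differ through the spread between goats, which the simulation left out. Alternatives were other scalings, tag lengths, single tags, mismatches and tests; 2 were added after seeing the data. Python 3.11.15, pandas 2.3.3, NumPy 2.4.6, SciPy 1.17.1 and matplotlib 3.10.9 were used.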

Additional observations from a re-analysis of the deposited data

Results flagged for a closer look

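A start of miR-199-3p that no held tag of the list names appeared 1 nt after the main start, outside the tags compared above. It had 5793 reads at anagen, 13025 at catagen and 12641 at telogen, or 362, 719 and 468 TPM, which is 2.81%, 3.07% and 2.53% of the reads of the 3 starts. It was lowest in anagen and highest in catagen, and these levels lie above the 0.188, 0.166 and 0.111 TPM that a count of 0 allows. With it, the log2 ratios of miR-199-3p were -0.86 and -0.52 with catagen and telogen as divisors, and 0.34 for catagen over telogen. No test for outliers among replicates could be made, since each stage has 1 library.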

How the results depend on the processing

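No paired analysis was possible because each stage has 1 library. Scaled to the reads of listed starts, the earlier start of miR-199-3p passed the limit for anagen over telogen (-1.02) and turned for catagen over telogen (-0.098). For miR-214-5p, size factors ended the call for anagen over telogen (-1.27), and tags with at least 2 reads gave one for anagen over catagen (-1.70). Listed tags only, with at most 33 reads a library, turned anagen over telogen for miR-199-3p (0.10 for both starts, 0.13 main, 0.078 earlier). With at least 100 reads in both libraries, 29, 24 and 25 start groups were called in the 3 pairs. With tags of 21 nt or longer the earlier start took 19.3%, 20.2% and 21.8%. By distinct tags in place of reads, the miR-199c type took 4.05%, 3.73% and 2.42%, and adenosine at position 22 took 56.9%, 64.6% and 69.7% at the main start and 52.6%, 52.9% and 47.2% at the earlier one, with intervals of the starts that overlap in all 3 libraries. With tags of exactly 22 nt it was 71.8%, 72.1% and 74.9% at the main start. miR-126 turned for anagen over telogen when scaled to listed starts (-0.24) and with tags of 21 nt or longer (-0.038). Of the calls, 73.9% were lower in anagen than in catagen, against 54.8% with size factors; 61.1% were lower in anagen than in telogen, against 78.2% scaled to listed starts and 75.7% with tags of 21 nt or longer; and 42.9% were lower in catagen than in telogen, against 64.4% scaled to listed starts. The median log2 ratios were then -0.069, -0.065 and -0.011 with size factors and -0.31, -0.54 and -0.21 scaled to listed starts. The cause of these changes was not tested. Ratios of the arms and a background of reference microRNAs were not run. With 10 to 44 reads a library, the ratios of miR-214-5p have wide intervals.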

Other observations

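The earlier start of miR-199-3p shares bases 2 to 7 with miR-101 and miR-144, though not base 8. miR-101 is a widely expressed microRNA and miR-144 one of red blood cells. Their starts are shown with bases 2 to 8 in capitals.

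miR-199-3p, start 1 nt earlier: tACAGTAGtctgcacatt

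miR-101: tACAGTACtgtgataact

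miR-144: tACAGTATagatgatgta

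The counts that follow are of these single starts and not of the whole microRNAs. In anagen this start of miR-101 had 44215 reads and the earlier start of miR-199-3p 38017, a ratio of the latter to the former of 0.860. In catagen this start of miR-101 had 36381 reads and the ratio was 2.25, and at telogen 41021 reads and 2.55. This start of miR-144 had 1662, 1384 and 194 reads, out of 1828, 1666 and 252 over its 4 held starts. Of all reads with these bases 2 to 7 at listed starts, the earlier start of miR-199-3p made up 45.3% at anagen (Wilson interval 45.0% to 45.7%), 68.4% at catagen (68.1% to 68.6%) and 71.8% at telogen (71.5% to 71.99%). The sum of the 3 starts was 5244, 6595 and 5402 TPM. The main start shared bases 2 to 7 with miR-665 alone among listed starts, which had 1, 2 and 5 reads. This comparison was chosen after the reads had been seen.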
